A study of Mus musculus with 167 samples.

Results

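The secreted factors of the fasting and stress response, Fgf21, Angptl4, Igfbp1, Gdf15 and Inhbe, were followed in liver messenger RNA from mice with knock-in alleles of Htt, the huntingtin gene. The 5 genes were taken by name from the 39179 genes of the deposited tables, and were chosen by their levels in these libraries, among them an earlier Fgf21 difference between Q175 and Q20 livers at 2 months. That contrast and the 2-month trend with repeat length are therefore given as descriptions with no test. The mice were C57BL/6, and the knock-in animals carried 1 copy of an allele named by its CAG repeat length, Q175, Q140, Q111, Q92, Q80 or Q20, beside a wild-type copy. Livers of these 6 lines and of wild-type (WT) mice were taken at 2, 6 and 10 months, which made 21 groups. A group held 8 libraries, 4 of each sex, except that Q80 was labelled with 3 females and 5 males at 2 months and had 4 females and 3 males at 10 months. Per the labels each knock-in line was housed with its own line, whereas WT mice were housed with Q20 mice. Each library was 1 liver sample numbered within its sex, and p-values measure the spread between these samples.

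Hepatokines are proteins that the liver releases into blood to act on other organs. Fgf21 is induced in fasting and by amino acid shortage through the transcription factors PPARA and ATF4, and signals through FGF receptors with the co-receptor Klb. Angptl4 is a PPARA target that inhibits lipoprotein lipase and so holds back triglyceride uptake. Igfbp1 binds insulin-like growth factors, is switched on by FOXO1 in fasting and is repressed by insulin. Gdf15 is a stress-induced factor that curbs appetite through the receptor Gfral in the hindbrain. Inhbe encodes the activin E subunit, which acts on fat tissue to restrain lipolysis, and insulin raises its mRNA.

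The promoters are shown because these routes of induction act on known DNA elements. RefSeq start-site windows (GRCm38.p6) were found for 4 of the 5 genes, and Angptl4 was not matched. The 250 bases before the start site are printed 5′ to 3′ on the gene's strand, with capitals for matches to the motifs searched. For Inhbe the RefSeq start differs from the GENCODE one, and its window lies inside the GENCODE span of the gene (127348857 to 127354411). The Igfbp1 start differs slightly, as its window ends at 7197786 and the GENCODE gene starts at 7197782.
Fgf21, chr7:45615491-45615740, minus strand: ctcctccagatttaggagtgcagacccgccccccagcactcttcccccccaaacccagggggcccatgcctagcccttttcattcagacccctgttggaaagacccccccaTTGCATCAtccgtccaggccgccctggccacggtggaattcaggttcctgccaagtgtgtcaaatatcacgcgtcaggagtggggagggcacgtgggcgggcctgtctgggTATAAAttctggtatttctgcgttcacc
Inhbe, chr10:127351849-127352098, minus strand: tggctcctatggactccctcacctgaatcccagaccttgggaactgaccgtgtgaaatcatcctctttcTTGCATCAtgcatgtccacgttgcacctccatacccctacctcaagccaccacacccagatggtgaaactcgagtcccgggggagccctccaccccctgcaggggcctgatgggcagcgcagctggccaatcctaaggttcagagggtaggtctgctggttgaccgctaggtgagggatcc
Igfbp1, chr11:7197537-7197786, plus strand: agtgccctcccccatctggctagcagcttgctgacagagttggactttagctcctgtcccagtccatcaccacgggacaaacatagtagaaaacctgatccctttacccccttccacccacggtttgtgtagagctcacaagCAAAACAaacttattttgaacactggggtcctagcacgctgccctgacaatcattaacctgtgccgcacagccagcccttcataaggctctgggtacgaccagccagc
Gdf15, chr8:70632457-70632706, minus strand: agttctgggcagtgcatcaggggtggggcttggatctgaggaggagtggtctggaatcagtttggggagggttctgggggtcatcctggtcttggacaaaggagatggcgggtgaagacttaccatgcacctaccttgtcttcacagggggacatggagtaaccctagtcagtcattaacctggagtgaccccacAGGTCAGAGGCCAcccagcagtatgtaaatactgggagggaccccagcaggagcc
Both strands were searched in each window for the CARE letters TGATGNAA bound by ATF4 with C/EBP factors, the cyclic AMP element TGACGTCA, the nuclear receptor repeat AGGNCANAGGNCA, the forkhead letters GTAAACA and CAAAACA, and TATAAA. In Fgf21 the CARE letters lay on the opposite strand, first base at -139 from the start, and TATAAA at -28. Inhbe had the CARE letters, also on the opposite strand, at -181, and both genes read TTGCATCA on their own strand there. Igfbp1 had CAAAACA at -108, and Gdf15 had the nuclear receptor repeat at -55. A second Gdf15 start-site window held none of the 6 motifs, and no matches overlapped. Among 32851 start-site windows, the 250 bases before the start held the CARE letters in 3.45%, the cyclic AMP element in 1.55%, the nuclear receptor repeat in 0.338%, GTAAACA in 3.17%, CAAAACA in 5.56% and TATAAA in 12.4%. A match describes the letters only.

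Total counts ran from 32025243 to 57151736 per library. Htt itself ran from 13.04 to 40.52 CPM (counts scaled to a common library size after TMM normalization). At 10 months Htt averaged 21.9 ± 4.12 CPM in the 39 libraries of the 5 longer lines and 29.5 ± 5.15 CPM in the 16 libraries of Q20 and WT (SD). Hepatocyte markers summed to 71970 CPM or more in the libraries of every group. In 1 library, Q80 male M5 of 2 months, the Y-linked genes went against the sex label. All knock-in libraries of 6 months whose names give an index set carry a different set from the WT libraries of that age, so knock-in against WT at 6 months cannot be told apart from index set.

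Levels of the 5 mRNAs differed widely. Per length, the median over all libraries was 47.9 FPKM (fragment counts scaled to gene length and library size) for Angptl4, 22.04 FPKM for Igfbp1, 12.97 FPKM for Inhbe, 1.60 FPKM for Gdf15 and 0.353 FPKM for Fgf21. Fgf21 (ENSMUSG00000030827, GRCm38 chromosome 7, 45613886 to 45615490) had a median of 14 counts per library, with a range of 0 to 165. The others had a median of 88 counts or more.

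**Figure D1:**
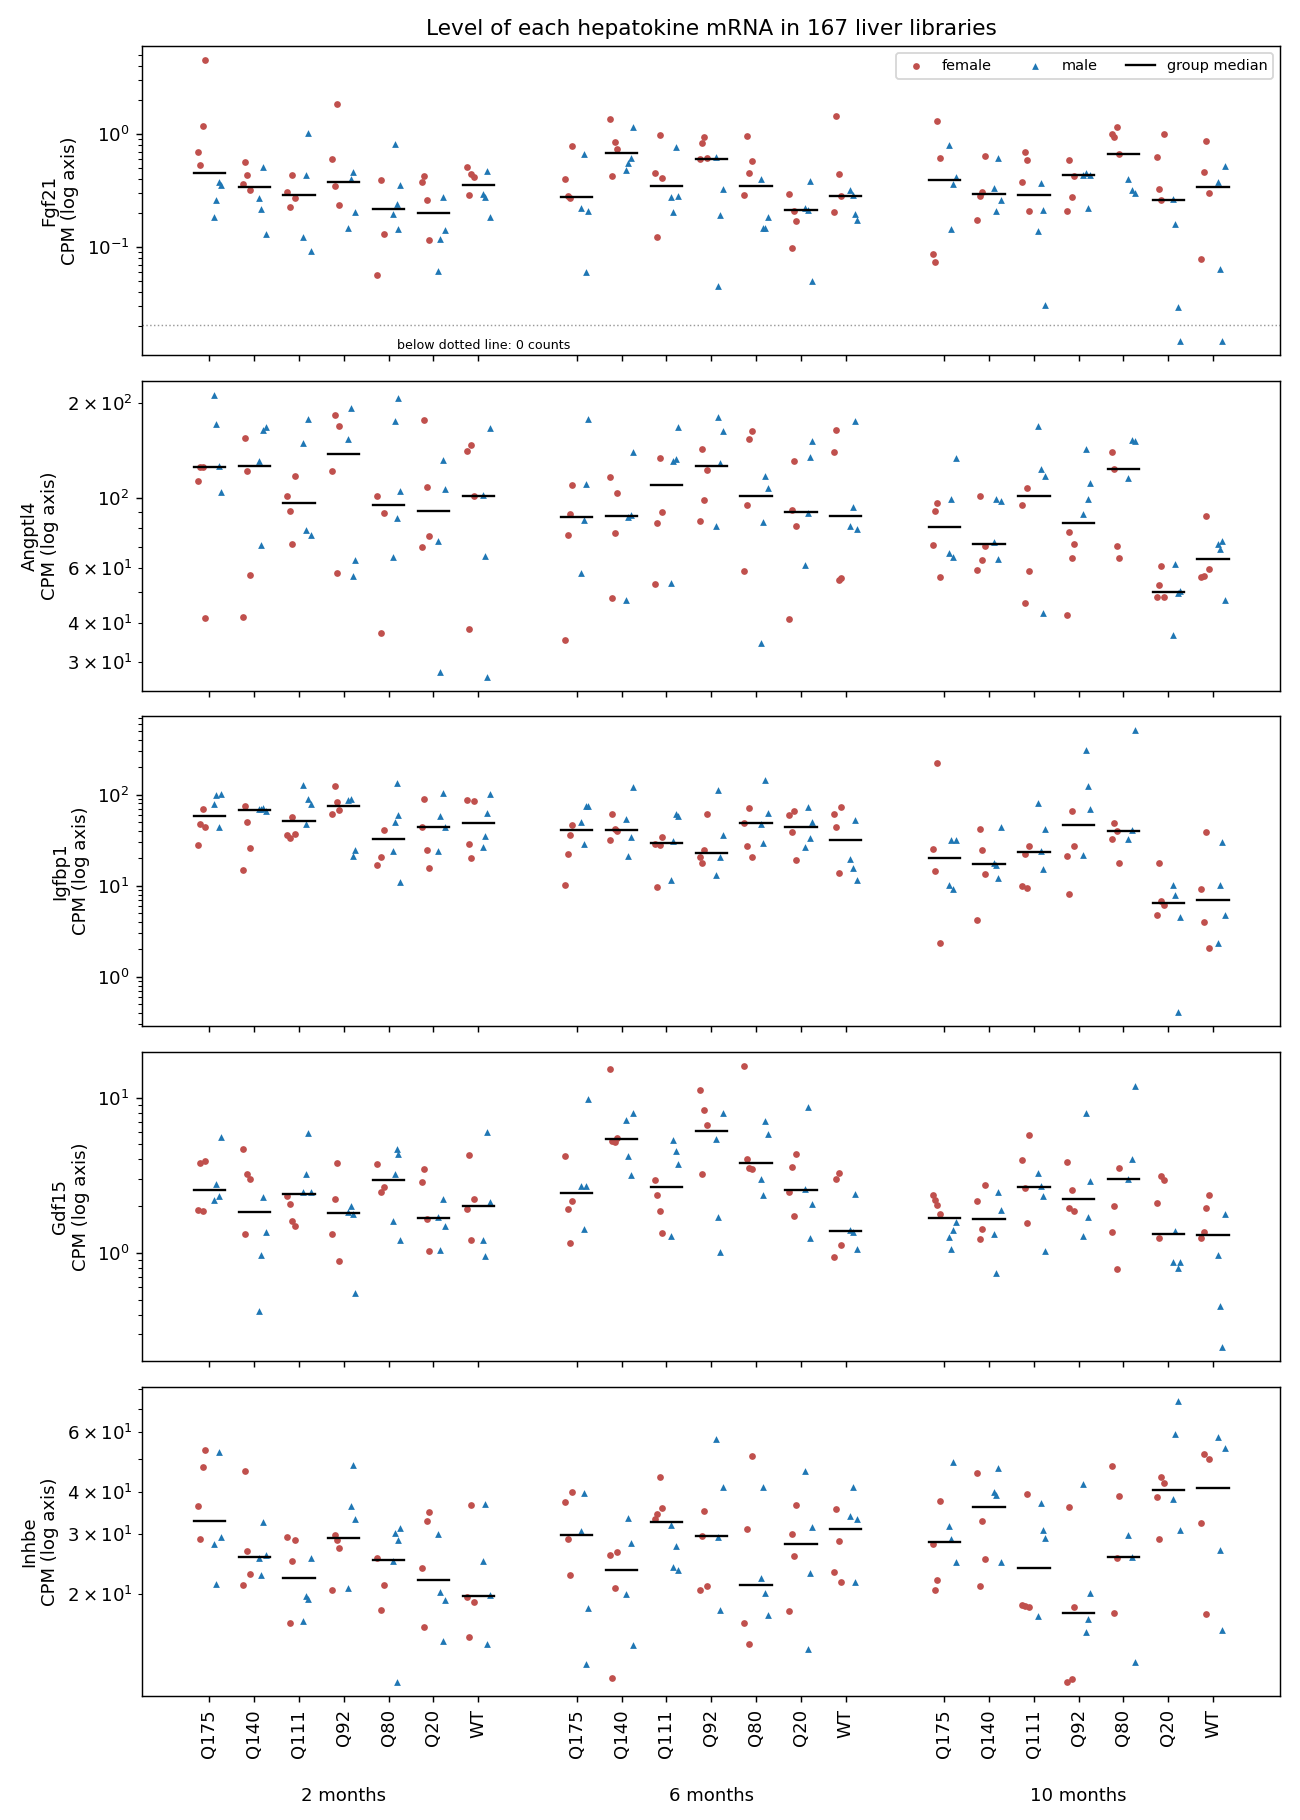
Level of each hepatokine mRNA in every liver library, in CPM on a log axis, by age and genotype. Red circles are females, blue triangles males and black bars group medians, and a single Q175 female reaches 4.50 CPM of Fgf21 at 2 months.

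Igfbp1 (ENSMUSG00000020429, chromosome 11, 7197782 to 7202546) had the widest range, from 0.413 to 506 CPM. Its group mean was highest in Q80 livers at 10 months (103 CPM) and lowest in Q20 livers at 10 months (7.30 CPM). Angptl4 (ENSMUSG00000002289, chromosome 17, 33773750 to 33781830) ran from 27 to 212 CPM, with the highest group mean in Q175 at 2 months (128 CPM) and the lowest in Q20 at 10 months (51.0 CPM). Gdf15 (ENSMUSG00000038508, chromosome 8, 70629393 to 70632456) had its highest group mean in Q140 at 6 months (6.71 CPM) and its lowest in WT at 10 months (1.296 CPM). Inhbe (ENSMUSG00000047492, chromosome 10, 127348857 to 127354411) was the steadiest, with a lowest group mean of 21.4 CPM in Q92 and a highest of 44.5 CPM in Q20, both at 10 months. Fgf21 had its highest group mean in Q175 at 2 months (1.01 CPM) and its lowest in Q20 at 6 months (0.205 CPM). With the 21 group means of a gene in order, the gap between neighbours exceeded the larger SD of the pair in 1 of 20 steps for Angptl4 and in 0 of 20 for each of the other 4 genes. Neighbouring levels thus did not differ beyond their spread, with that exception.

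These genes varied more between mice of the same group than most liver genes. The biological coefficient of variation of Igfbp1 was 0.546 at 2 months and 0.943 at 10 months, the second above 97.6% of the 15689 genes tested. Fgf21 stood at 0.631 at 2 months, above 97.2% of 15137 genes. Inhbe was the lowest of the 5 at 2 and 6 months, at 0.296 and 0.349, and Angptl4 was the lowest at 10 months, at 0.283, above 76.4% of genes.

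At 2 months Fgf21 ranged from 0.186 to 4.50 CPM in Q175 livers with a median of 0.455, and from 0.0611 to 0.428 CPM in Q20 livers with a median of 0.201. The 4 Q175 females had 0.700, 0.534, 1.16 and 4.50 CPM, against 0.379, 0.428, 0.262 and 0.117 CPM in the Q20 females. All 4 Q175 females lay above all 4 Q20 females, while the males of both lines overlapped. The log2 fold change was 2.09 ± 0.50 (SE), and it was 1.19 without the Q175 female F4, whose 4.50 CPM came from 165 counts. That library also had the lowest Angptl4 of its group, 41.5 CPM, where the other 7 ran from 105 to 212 CPM. The other members had log2 fold changes of 0.63 ± 0.22 for Inhbe, 0.65 ± 0.37 for Gdf15, 0.37 ± 0.35 for Angptl4 and 0.30 ± 0.40 for Igfbp1. Across the 6 knock-in lines the 2-month slope of Fgf21 was 1.20 ± 0.32 log2 units per 100 repeats. In this contrast 0.310% of all genes passed an adjusted p of 0.05, and nothing is read from it for the members. The remaining lines were tested against Q20 with edgeR's quasi-likelihood test, adjusted over all genes, as all tests here were. None of the 5 genes passed in Q140, Q111, Q92 or Q80 livers at 2 months, where 0%, 0%, 0% and 0.0991% of all genes passed. Only Fgf21 in Q92 reached an unadjusted p below 0.05, with a log2 fold change of 1.20 ± 0.54 and an adjusted p of 0.65. These contrasts share the Q20 libraries of the comparison that chose Fgf21, so nothing is read from them for Fgf21.

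At 6 months Fgf21 was higher in Q140 and Q92 livers than in Q20 livers, whose mean was the lowest of the 21 groups. WT livers of that age ranged from 0.174 to 1.45 CPM with a median of 0.286. Against WT, where line cannot be told apart from index set, Fgf21 was called in neither line. Q140 livers ranged from 0.421 to 1.36 CPM with a median of 0.675, and Q20 livers from 0.0503 to 0.385 CPM with a median of 0.212. The groups did not overlap, and the counts behind them were 19 to 70 in Q140 and 2 to 16 in Q20. Fgf21 rose by 1.91 ± 0.42 on the log2 scale in Q140 (adjusted p 0.00486), 1 of 5 members called, where 5.98% of all genes were called. In bulk liver, more cells of a type and more RNA per cell cannot be told apart. Of 9 hepatocyte markers 0 were called in Q140, and their summed level had a median of 124400 CPM in Q140 (98770 to 138600) and 109000 CPM in Q20 (93370 to 120100). In Q92 livers Fgf21 ranged from 0.0451 to 0.948 CPM with a median of 0.605, which overlapped Q20. It rose there by 1.29 ± 0.45 (adjusted p 0.0368), 1 of 5 members called, with 18% of all genes called, a share near that of the members. That call was lost in 7 of 16 fits that each left out 1 Q92 or Q20 library.

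Fgf21 did not pass in Q175, Q111 or Q80 livers at 6 months. Q175 livers had a median of 0.276 CPM and a log2 fold change against Q20 of 0.78 ± 0.48 (adjusted p 0.30). Q111 gave 1.05 ± 0.47 (adjusted p 0.22) and Q80 gave 0.92 ± 0.47 (adjusted p 0.21). No member was called in these 3 lines, against 10.9%, 1.24% and 9.30% of all genes in Q175, Q111 and Q80. At an unadjusted p below 0.05 there were 0 members in Q175 and in Q80 and 1, Fgf21, in Q111, and DESeq2 called 0 in Q175. The slope on repeat length at 6 months was 0.69 ± 0.28 for Fgf21 (adjusted p 0.13), and 0 of 5 members passed, with 6.27% of all genes called. Fgf21 alone had an unadjusted p below 0.05 for this slope, and DESeq2 called 0 of the 5. Fgf21 was called when the Q175 libraries were left out of it.

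At 6 months the median summed level of macrophage markers was highest in Q20, above each longer line and WT. Of 12 Kupffer cell and macrophage markers, 11 fell in Q140 against Q20 and 11 in Q92 against Q20. Their summed level was 315 to 495 CPM in Q140, 294 to 620 CPM in Q92 and 411 to 1280 CPM in Q20. Its median was 438.5 CPM in Q140 and 430.3 CPM in Q92, against 615.8 CPM in Q20. It was also below Q20 in lines where Fgf21 was not called, at 491.4 CPM in Q175, 527.3 in Q111 and 543.7 in Q80. In WT livers of that age the median was 439.2 CPM (256.7 to 834.7), so Q20 stood above WT as well. With 3 Q20 females left out (F1, F3 and F4), which had high macrophage markers, the Fgf21 call was lost in both lines, at 1.78 ± 0.53 in Q140 (adjusted p 0.0913) and 1.16 ± 0.56 in Q92 (adjusted p 0.239). The part of these markers in the Fgf21 difference was not tested.

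Against WT at 6 months it was Gdf15 that passed. Gdf15 ranged from 3.18 to 15.2 CPM in Q140 livers with a median of 5.40, and from 0.938 to 3.27 CPM in WT livers with a median of 1.39. The Q140 and WT ranges met only at their edges. Gdf15 was higher by 1.87 ± 0.44 on the log2 scale in Q140 (adjusted p 0.00119), by 1.62 ± 0.44 in Q92 (adjusted p 0.00565) and by 1.64 ± 0.45 in Q80 (adjusted p 0.00589). It was the 1 member called of 5 in each, where 27.7%, 22.4% and 19% of all genes were called, shares near that of the members. Line, housing and index set cannot be told apart in these 3 contrasts. In Q175 and Q111 against WT 0 of 5 members were called, and 0 had an unadjusted p below 0.05, with 25.9% and 26.7% of all genes called. In Q140 against Q20, which share an index set where it is given, Gdf15 differed by 0.97 ± 0.43 (adjusted p 0.16).

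**Figure D2:**
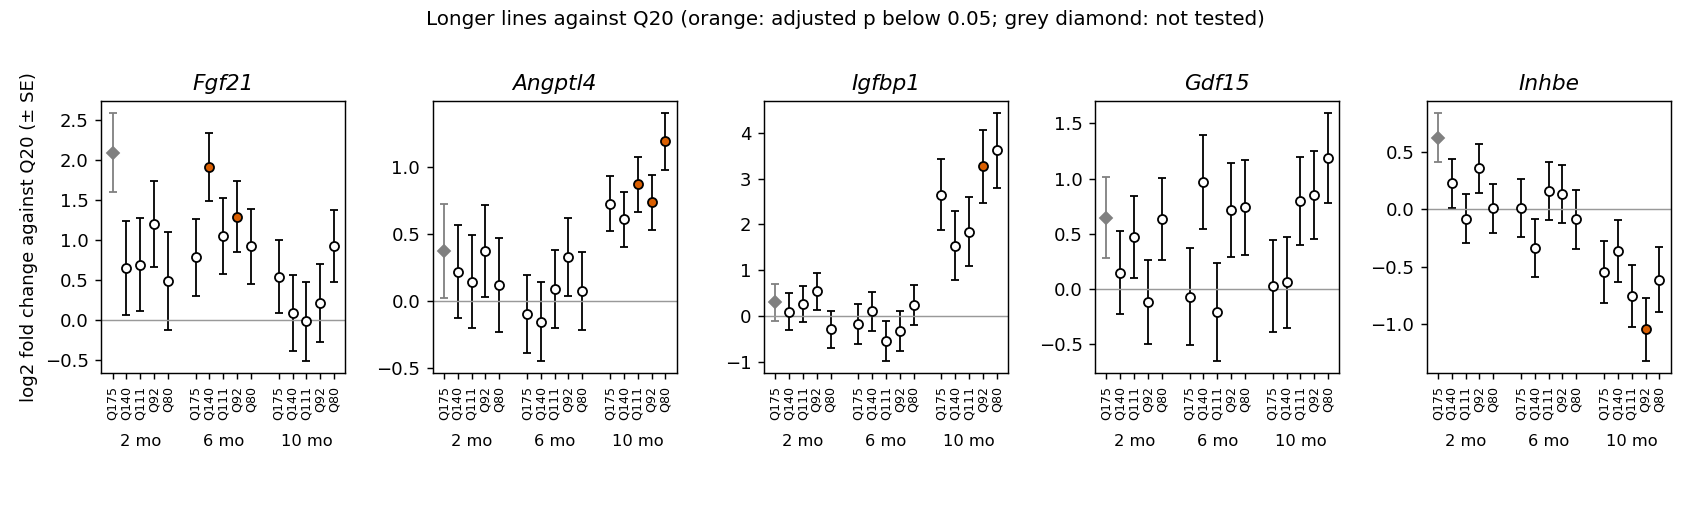
Log2 fold change of each member in each longer line against Q20, with its SE, at 2, 6 and 10 months. Orange marks an adjusted p below 0.05 and the grey diamond the untested contrast. Fgf21 is called in Q140 and Q92 at 6 months, Angptl4 in Q111, Q92 and Q80 at 10 months, and Igfbp1 and Inhbe in Q92 at 10 months.

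At 10 months Angptl4 was higher and Inhbe lower in longer lines than in Q20, and Igfbp1 was many times higher in some livers. All 5 lines were set against the same 8 Q20 libraries, whose mean was the lowest of the 21 groups for Angptl4 and Igfbp1 and the highest for Inhbe. Angptl4 ranged from 64.6 to 153 CPM in Q80 livers (n = 7) with a median of 123, against 36.5 to 61.8 CPM in Q20 livers with a median of 50.2. The 2 groups did not overlap. The log2 fold change was 1.19 ± 0.21 (adjusted p 0.0105), which was the smallest p among 15689 genes. Angptl4 was 1 of only 2 genes called in that contrast (0.0127%).

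Q111 livers had 42.9 to 170 CPM of Angptl4 with a median of 102, and Q92 livers 42.3 to 143 CPM with a median of 83.3. Both ranges overlapped Q20. The rise was 0.87 ± 0.21 in Q111 (adjusted p 0.0154), 1 of 5 members called, with 1.11% of all genes called. In Q92 it was 0.73 ± 0.21 (adjusted p 0.0314), 1 of 3 members called there with 4% of all genes called. Q175 and Q140 gave 0.73 ± 0.21 (adjusted p 0.0596) and 0.61 ± 0.20 (adjusted p 0.9997). No member passed in these 2 lines, where 1.26% and 0.00637% of all genes were called. Unadjusted p-values fell below 0.05 for 3 members in Q175 and 2 in Q140, and DESeq2 called 2 members in Q175, Igfbp1 and Angptl4. The Angptl4 call was lost without the Q80 female F2, at an adjusted p of 0.0548, and in 6 of 16 fits for Q92 and 2 of 16 for Q111 that each left out 1 library.

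Igfbp1 in Q92 livers ranged from 8.03 to 311 CPM with a median of 46.7, against 0.413 to 17.7 CPM in Q20 livers with a median of 6.43. The Q92 median was above the highest Q20 liver, and the lowest Q92 livers lay within the Q20 range. Igfbp1 rose by 3.27 ± 0.80 in Q92 on the log2 scale (adjusted p 0.0141). Q80 livers ranged from 17.9 to 506 CPM with a median of 40.0, above all Q20 livers, and gave 3.62 ± 0.82 without passing (adjusted p 0.11, against 0.0127% of genes called). The Q80 male M3 held the 506 CPM, where the other Q80 livers ran from 17.9 to 49.3 CPM. In fits that each left out 1 Q80 or Q20 library, the value ran from 2.30 to 3.99. Adjusted p-values in those fits ran from 0.0517 to 0.533. Without the libraries that carry Adipoq mRNA, described below, Q80 against Q20 passed at 3.57 (adjusted p 0.0444). No Q80 or Q20 liver was among those libraries, so the livers compared were the same. Q175, Q111 and Q140 gave 2.66 ± 0.77, 1.84 ± 0.76 and 1.54 ± 0.75, with adjusted p-values of 0.0690, 0.28 and 0.9997. The value for Q175 rests on its female F3, with 220.0 CPM of Igfbp1, and was 1.10 without that library (adjusted p 0.569).

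Inhbe in Q92 livers ranged from 11.1 to 42.0 CPM with a median of 17.6, against 29.02 to 73.8 CPM in Q20 livers with a median of 40.5. All 5 longer lines had lower Inhbe means than Q20. Inhbe fell by 1.05 ± 0.27 in Q92 (adjusted p 0.0216), and the values in Q111, Q80, Q175 and Q140 were -0.76 ± 0.27, -0.61 ± 0.28, -0.55 ± 0.27 and -0.37 ± 0.27, of which none passed. The Q92 call was lost in 3 of 16 fits that each left out 1 library, without the Q20 male M3, the Q92 female F1 or the Q92 female F3. Gdf15 and Fgf21 were called in no line at 10 months. Slopes on repeat length at that age passed for 0 of 5 members, with 0.595% of all genes called, 0 members with an unadjusted p below 0.05 and 0 called by DESeq2. Gdf15 was called when the Q20 libraries were left out of the slope.

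Adipocyte mRNA was present in some of these livers. Adipoq, made by fat cells, exceeded 0.4 CPM in 8 libraries, of which 3 were Q111, 2 Q175 and 2 Q92 livers of 10 months and 1 a WT liver of 6 months. In the other 159 libraries it was at most 0.130 CPM. Of 9 adipocyte markers, 2 rose in Q111, 4 in Q175, 0 in Q92 and 0 in Q80 against Q20 at 10 months, with median log2 fold changes of 3.75, 4.07, 2.09 and -0.00028 and all-gene medians of 0.0048, -0.0038, 0.0099 and -0.0029. The summed level was 888 to 3363 CPM in Q111, 446 to 3150 CPM in Q175, 700 to 3314 CPM in Q92, 717 to 2555 CPM in Q80 and 719 to 3388 CPM in Q20. This sum did not follow Adipoq and is not read as fat content. The Q20 male M1 of 10 months reached 3388 CPM with 4 of 9 markers at 0. The WT female F2 of 6 months, with 19.14 CPM of Adipoq, had a sum of 1437 CPM. The Q175 female F3 also held 270 CPM of Acta1, a muscle actin. Angptl4 is expressed in fat too. Without the 8 libraries, a limit set after the values were seen, it was higher against Q20 by 1.19 in Q80, 1.08 in Q111 and 0.86 in Q92 (adjusted p 0.000703, 0.00678 and 0.0255). Igfbp1 in Q92 was 3.48 (adjusted p 0.0216) and in Q175 1.34 (adjusted p 0.471) without them. Inhbe in Q92 no longer passed, at -0.93 (adjusted p 0.142).

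Q20 and WT mice, which were housed together, stood on the same side of the other lines at 10 months. Igfbp1 had a median of 25.6 CPM (2.32 to 506) in the 39 livers of the longer lines and 6.43 CPM (0.413 to 39.0) in the 16 livers of Q20 and WT. Angptl4 averaged 92.0 ± 33.1 CPM in the longer lines and 58.0 ± 12.5 CPM in Q20 and WT (SD). Inhbe averaged 28.1 ± 10.7 CPM in the longer lines and 41.4 ± 15.9 CPM in Q20 and WT. At 6 months the same values for Inhbe were 28.3 ± 10.5 CPM in the longer lines and 29.02 ± 8.69 CPM in Q20 and WT, and for Angptl4 103 ± 39.8 CPM in the longer lines and 102 ± 42.2 CPM in Q20 and WT. At 2 months Angptl4 averaged 117 ± 49.3 CPM in the longer lines and 97.4 ± 46.98 CPM in Q20 and WT, and Inhbe 28.4 ± 9.65 CPM in the longer lines and 23.6 ± 8.07 CPM in Q20 and WT, the opposite order to 10 months for Inhbe. Whether the separation differed between ages was not tested. Presence of a long allele and housing away from Q20 cannot be told apart here.

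**Figure D3:**
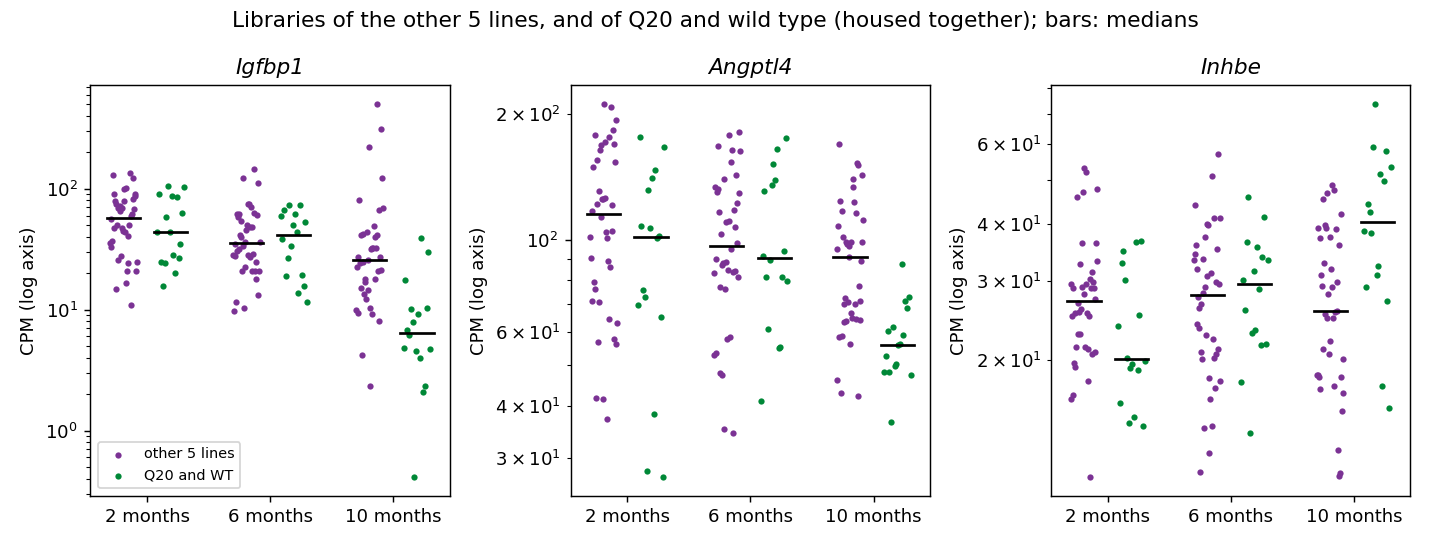
Igfbp1, Angptl4 and Inhbe in CPM on log axes at 2, 6 and 10 months, for the livers of the 5 longer lines and those of Q20 and WT, which shared housing. Bars are medians, and at 10 months the Igfbp1 median is 25.6 CPM in the longer lines and 6.43 CPM in Q20 and WT.

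Against WT in place of Q20, no member was called in any longer line at 10 months, where 1.38% (Q175), 0.00637% (Q140), 0.975% (Q111), 0.739% (Q92) and 0.00637% (Q80) of all genes were called. Unadjusted p-values fell below 0.05 for 1, 0, 3, 3 and 4 members in these lines. The values kept the direction of the Q20 contrasts, with Angptl4 in Q80 at 0.84 ± 0.21 (adjusted p 0.29), Igfbp1 in Q92 at 2.49 ± 0.77 (adjusted p 0.10) and Inhbe in Q92 at -0.84 ± 0.27 (adjusted p 0.12). Q20 itself did not differ from WT past the test in any of the 5 genes at 2, 6 or 10 months, with 0%, 32.2% and 0.0127% of all genes called. DESeq2 also called 0 members at each age, and Fgf21 at 6 months was the single one with an unadjusted p below 0.05. For Igfbp1 at 10 months the log2 fold change of Q20 over WT was -0.78 ± 0.75 (adjusted p 1.0).

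Females had more Fgf21 than males at 6 and 10 months. The female median was 0.393 CPM at 2 months, 0.447 CPM at 6 months and 0.447 CPM at 10 months, against male medians of 0.259, 0.252 and 0.299 CPM. The sexes overlapped widely. Log2 fold changes of females over males with genotype in the model were 0.71 ± 0.22 at 6 months (adjusted p 0.0047, n = 28 each) and 0.78 ± 0.25 at 10 months (adjusted p 0.00725, n = 28 and 27). At 2 months the value was 0.82 ± 0.28 (n = 27 and 29), given with no test because it holds the Q175 and Q20 libraries that chose Fgf21. Without those libraries it was 0.29 ± 0.29 and did not pass (adjusted p 0.417). The Fgf21 call at 10 months was lost without the libraries that carry Adipoq mRNA. At that age those libraries were all female except the Q111 male M3. Angptl4 was lower in females at 10 months, with a log2 fold change of -0.31 ± 0.11 (adjusted p 0.0157), with medians of 64.4 CPM in females and 89.0 CPM in males. Sex reached far beyond these genes, with 60.9% and 57.2% of all genes called at 6 and 10 months, so 1 and 2 of 5 members is below that share. At 2 months, where 57.6% of all genes were called, Igfbp1 was near the threshold, at -0.50 ± 0.22 (adjusted p 0.0501). On log2 FPKM the Angptl4 difference did not pass (-0.15).

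**Figure D4:**
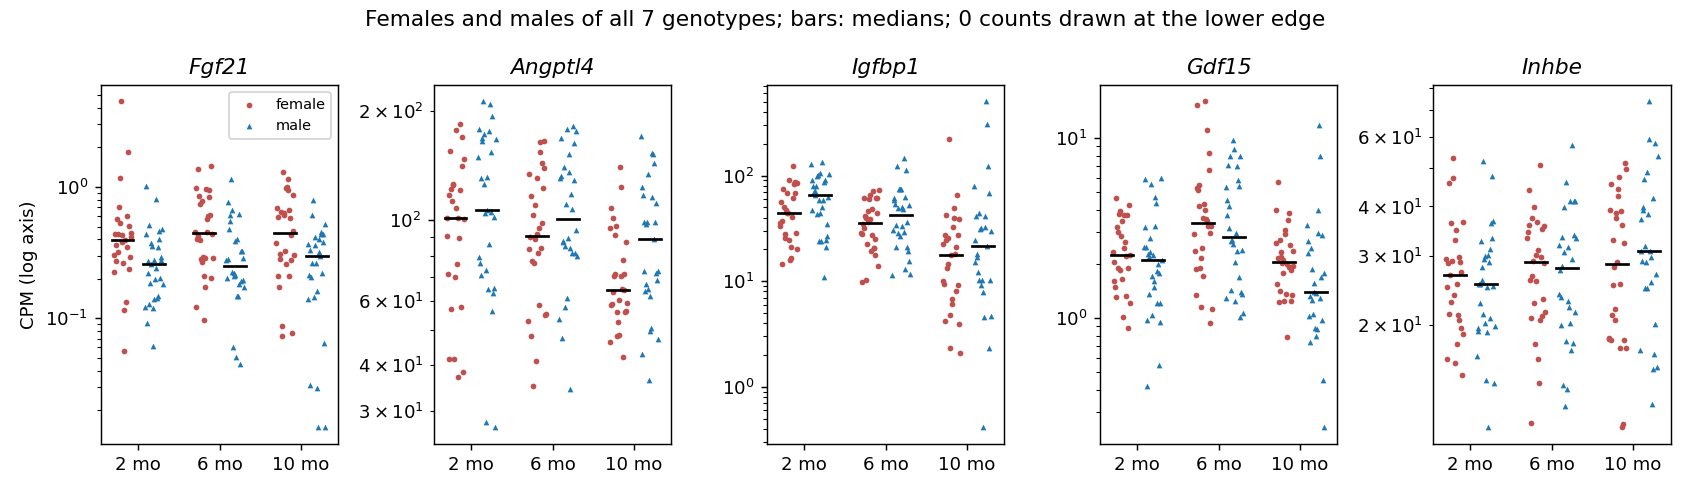
Level of the 5 mRNAs in CPM on log axes in females and males of all 7 genotypes at 2, 6 and 10 months, with medians as bars and 0 counts at the lower edge. Female medians of Fgf21 (0.393, 0.447 and 0.447 CPM) lie above male medians (0.259, 0.252 and 0.299 CPM).

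Over ages, with all genotypes pooled, Gdf15 peaked at 6 months while Igfbp1 and Angptl4 were lowest at 10 months. Gdf15 medians were 2.20, 3.21 and 1.88 CPM at 2, 6 and 10 months. It was higher at 6 than at 2 months by 0.69 ± 0.16 (adjusted p 0.000191) and lower at 10 than at 6 months, at -0.86 ± 0.16 (adjusted p 2.61e-06). Igfbp1 medians were 53.3, 36.3 and 17.9 CPM, with -0.79 ± 0.24 for 10 against 2 months (adjusted p 0.00748). Angptl4 medians were 106, 92.7 and 71.1 CPM, with -0.46 ± 0.11 for 10 against 2 months (adjusted p 0.000793) and -0.34 ± 0.11 for 10 against 6 months (adjusted p 0.00681). Members called were thus 1, 2 and 2 of 5 for 6 against 2, 10 against 2 and 10 against 6 months, beside 50.3%, 24.9% and 53.5% of all genes. In knock-in lines age 6 months goes with its own index set, and in WT alone Gdf15 was -0.49 at 6 against 2 months, the opposite direction without passing. Igfbp1 for 10 against 2 months was -2.15 in WT alone and -0.59 in the knock-in lines alone, and passed in neither. Its mean was higher at 10 than at 2 months in Q80 (103 against 44.7 CPM) and Q92 (80.9 against 69.65 CPM). Mean Angptl4 was higher at 10 months in Q80 (117 against 108.5 CPM). In the other genotypes each mean was lower at 10 months.

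Other targets of the same pathways were counted beside 5.98% of all genes called in Q140 and 18% in Q92 at 6 months. For Q140 against Q20 at 6 months, 3 of 39 tested ATF4 targets rose and 0 fell, namely the tRNA synthetases Cars (0.64 ± 0.13) and Sars (0.29 ± 0.06) and the transcription factor Atf5 (0.65 ± 0.17), and the list median was 0.10 against -0.01 over all genes. Of 46 PPARA targets 2 rose and 2 fell in Q140. The fuel-switch kinase Pdk4 (0.998 ± 0.29) and the fatty acid binder Fabp1 (0.45 ± 0.14) rose, and the fatty acid importer Cpt1a (-0.36 ± 0.10) and the uncoupler Ucp2 (-0.45 ± 0.13) fell. In Q92 against Q20 at 6 months 13 PPARA targets rose and 1 fell, with a median of 0.25 against -0.01, led by Fabp1 (0.63 ± 0.14), Pex11a (0.63 ± 0.17), Hadha (0.25 ± 0.07) and Acaa1b (0.60 ± 0.17). Of 38 genes of the FOXO1, glucagon and glucocorticoid fasting list, 0 rose and 4 fell in both lines, among them the metal-binding Mt1 and Mt2. Mt2 was -2.09 ± 0.66 in Q140 and -2.02 ± 0.66 in Q92.

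The same lists were counted at 10 months, where Angptl4 and Igfbp1 were called. In Q80 against Q20, 0 of 39 ATF4 targets, 0 of 46 PPARA targets and 0 of 38 fasting genes were called, which says little where 0.0127% of all genes were called, and the fasting list had a median of 0.28 against -0.003. In Q92 against Q20, with 4% of all genes called, the counts were 1 up and 2 down for ATF4 targets, 0 for PPARA targets and 1 up for the fasting list, the gluconeogenic coactivator Ppargc1a (0.57 ± 0.17). Of 18 core clock genes 2 rose and 4 fell in Q92, with Arntl at 2.05 ± 0.42, Npas2 at 1.94 ± 0.52, Per2 at -1.12 ± 0.28 and Tef at -0.61 ± 0.15. Of 14 immediate early genes 3 rose there, namely Egr1 (3.21 ± 0.76), Fos (2.43 ± 0.69) and Zfp36 (1.05 ± 0.23). Q175 livers had 3 of 14 higher, Fosb, Nr4a1 and Atf3. The part of these genes in the Igfbp1, Angptl4 and Inhbe differences was not tested.

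Receptors and partners of the 5 factors were mostly well expressed in liver and changed in few contrasts. Klb, the Fgf21 co-receptor, had a median of 11.1 FPKM, and Fgfr4 had 11.04 FPKM and rose by 0.34 ± 0.10 in Q140 against Q20 at 6 months (adjusted p 0.0311). Gfral, the Gdf15 receptor, was listed at 0 in all libraries. Angptl8, a liver relative of Angptl4 that also acts on lipoprotein lipase, had a median of 33.0 FPKM. It ranged from 5.96 to 188 FPKM and passed in none of the contrasts listed for partners. Lipoprotein lipase itself, Lpl, rose by 1.36 ± 0.30 in Q175 against Q20 at 10 months (adjusted p 0.0101), the contrast with adipocyte and muscle mRNA. Inhbc, the activin C subunit and nearest liver relative of Inhbe, had a median of 21.5 FPKM. It fell by 0.80 ± 0.19 in Q92 against Q20 at 10 months (adjusted p 0.0115), the same contrast in which Inhbe fell.

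In single livers, Igfbp1 and Inhbe ran in opposite directions. With the mean of each genotype, age and sex removed from log2 CPM, their Pearson correlation was -0.629 and Spearman's rho -0.626 over all libraries, 56, 56 and 55 of them at 2, 6 and 10 months. Within these ages it was -0.438, -0.581 and -0.765, and it was -0.514 in females and -0.727 in males, and -0.644 without the 2 libraries farthest from the median. Inhbe was the lowest-ranking of all 12079 genes with a mean of at least 1 CPM in its correlation with Igfbp1. Angptl4 and Igfbp1 had a correlation of 0.351, Fgf21 and Inhbe 0.263, Fgf21 and Gdf15 0.225, and Fgf21 and Angptl4 -0.083. These are descriptions over libraries that share their normalization, with no test.

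**Figure D5:**
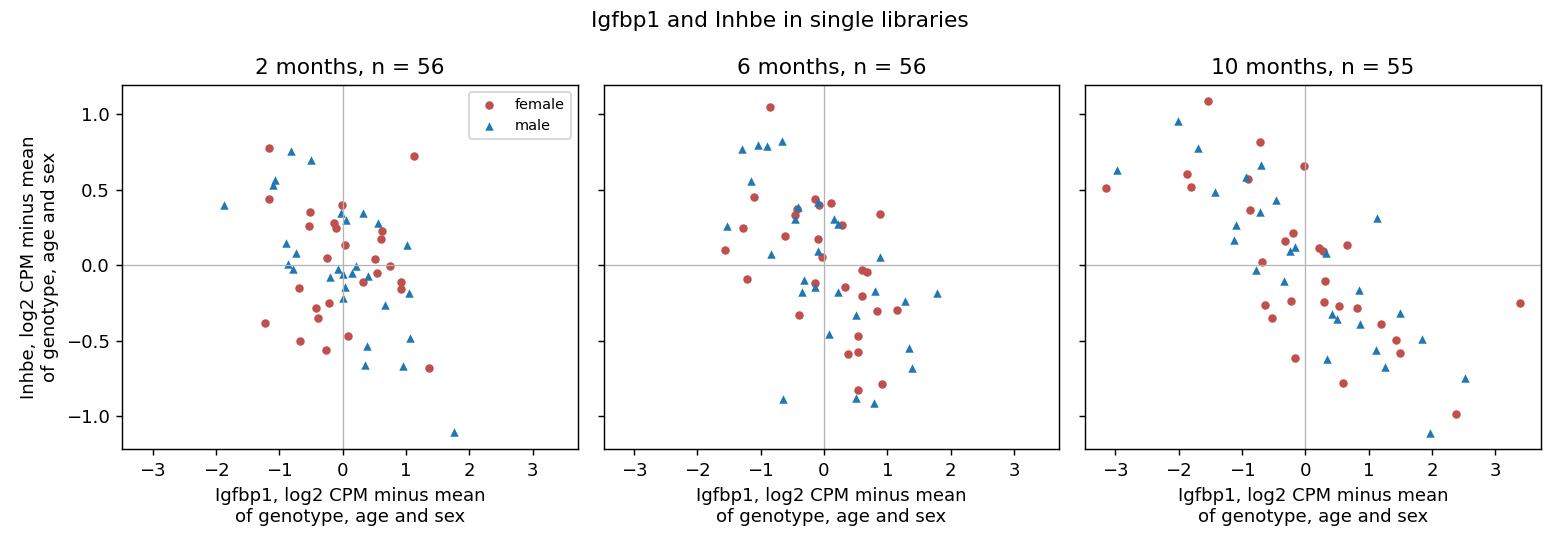
Igfbp1 (x axis) and Inhbe (y axis) in single livers at 2, 6 and 10 months, each as log2 CPM minus the mean of its genotype, age and sex. The Pearson correlation is -0.438, -0.581 and -0.765 at the 3 ages.

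Genes most like each member were ranked by the same correlation over all libraries. For Igfbp1 they were Irf2bp2 (0.789), Ip6k2 (0.743), the insulin receptor substrate Irs2 (0.680), Arl4d (0.644) and Trp53inp1 (0.643). Inhbe was most like the lipolysis inhibitor G0s2 (0.642), Tbx3 (0.631), Nuak2 (0.561), Iffo2 (0.547) and Angptl8 (0.536), and least like Irf2bp2 (-0.677). For Angptl4 the highest were the mitochondrial carrier Slc25a47 (0.825), Cln8 (0.771), the methionine adenosyltransferase Mat2a (0.756), Herpud1 (0.742) and the gluconeogenic enzyme Pck1 (0.739). Gdf15 was most like Zfp36 (0.564), Nr0b2 (0.503), Tgif1 (0.492), Bbc3 (0.487) and Fzd5 (0.471). Correlations of Fgf21 were the weakest of the 5, with Zfp740 (0.485), the carnitine acetyltransferase Crat (0.471), the glycerol kinase Gk (0.453), Arrdc3 (0.432) and Rabggtb (0.427), at a median of 14 counts per library.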

How the data were processed

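Liver polyA RNA of 167 mice was sequenced on HiSeq instruments, per the labels' protocols, with base calling by CASAVA 1.8.2, per the submitters' processing notes. Aligner, quantifier, build and annotation were not given in the sources used here. Values deposited by the authors were expected counts per gene (14.15% not whole, rounded here) and FPKM values per gene, for 39179 Ensembl IDs, of which 37607 had GENCODE M21 names and positions. Total counts (32025243 to 57151736) set the counting error.

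The members and gene lists were chosen with earlier results of these data known. Each age was fitted with genotype and sex in edgeR 4.0.16 (R 4.3.3): TMM, filterByExpr, glmQLFit and glmQLFTest, p-values adjusted by Benjamini-Hochberg across every gene tested, threshold 0.05. Ages were compared with genotype and sex in the model, and slopes fitted in knock-in lines per 100 repeats. SE is the fold change divided by the square root of F. The models were checked on simulated data. CPM use TMM sizes, and correlations a prior count of 2. Named genes are the 5 members, Htt, partners, the 5 genes most like each member with a mean of at least 1 CPM, and up to 4 called genes of a list with the smallest p. Adipoq, Acta1, and genes given as least alike were chosen after their values were seen. Alternatives were DESeq2 1.42.0, RLE, no filter, limma 3.58.1 on log2 FPKM with pseudocounts of 0.1 and 1 (mean FPKM of at least 0.1), 2-group fits, a replicate block, each sex alone, other dispersion estimates and libraries left out. No column went unused. Not every partner is reported here.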

Additional observations from a re-analysis of the deposited data

Results flagged for a closer look

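In 105 groups of 1 gene, genotype and age, 5 libraries stood apart from the rest of their group on log2 CPM by Dixon's 95% limit, a test that flags about 1 in 20 groups by chance, and 20 did on CPM. The Fgf21 level of the WT female F2 of 6 months was 1.453 CPM (67 counts), above 0.174 to 0.441 CPM in the others, and that library held 19.14 CPM of Adipoq. Angptl4 in the Q175 female F4 of 2 months was 41.48 CPM, below 104.6 to 212.3 CPM in the others, in the library with the highest Fgf21. Angptl4 in the Q20 male M1 of 10 months was 36.5 CPM, below 48.19 to 61.77 CPM. Igfbp1 in the Q20 male M3 of 10 months was 0.4134 CPM (14 counts), below 4.576 to 17.65 CPM, and the same library had the highest Inhbe of all, 73.85 CPM. Igfbp1 in the Q80 male M3 of 10 months was 505.7 CPM, above 17.91 to 49.33 CPM, in a library whose neutrophil markers summed to 28.82 CPM.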

How the results depend on the processing

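The values below are log2 fold changes, and the cause of each change was not tested. Fgf21 in Q175 against Q20 at 2 months (2.09) was 0.53 in limma on log2(FPKM + 1) and 0.95 in males. Fgf21 in Q92 against Q20 at 6 months (1.29) missed the threshold at 1.21 with estimateDisp, 0.81 and 0.30 in limma with pseudocounts of 0.1 and 1, 0.43 in males and 1.16 without 3 Q20 females, and in Q140 (1.91) at 1.69 in males and 1.78 without those females. At 10 months against Q20, DESeq2 called Igfbp1 in Q175 (2.64), Angptl4 in Q175 (0.73) and Igfbp1 in Q80 (3.62), and the last was also called in males (5.06) and without Adipoq libraries (3.57). Angptl4 in Q80 missed the threshold in females (0.93) and without the libraries that stand apart (1.03). In Q92 Angptl4 missed it with no filter (0.73), in females (0.29), in males (1.17) and without libraries that stand apart (0.61), Igfbp1 in females (1.81) and males (4.50), and Inhbe in females (-1.01), in males (-1.08), with 2 groups (-1.04), without libraries that stand apart (-0.96) and without Adipoq libraries (-0.93). Angptl4 in Q111 missed it in limma (0.76 and 0.74), in females (0.55), in males (1.20), with 2 groups (0.87) and without libraries that stand apart (0.75). For sex at 2 months Fgf21 was 0.29 without the Q175 and Q20 libraries, a setting chosen after seeing the data, and at 10 months Angptl4 was -0.15 and -0.15 in limma, and Fgf21 0.62 without Adipoq libraries. In WT alone Gdf15 reversed for 6 against 2 months (-0.49) and missed for 10 against 6 (-0.48), as did Igfbp1 for 10 against 2 months (-2.15 in WT, -0.59 in knock-in lines) and Angptl4 for 10 against 2 (-0.60) and 10 against 6 months (-0.68).

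Members called changed with these settings. At 6 months the count went to 0 in Q92 (males, both limma fits, estimateDisp, without 3 Q20 females) and in Q140 (males, without those females), and to 1 for the slope without Q175. At 10 months it went to 0 in Q111 (each sex, both limma fits, 2 groups, without libraries that stand apart), to 0 in Q92 in each sex and 1 without libraries that stand apart, to 2 in Q175 with DESeq2, to 1 for the slope without Q20, and in Q80 to 2 (DESeq2, without Adipoq libraries), 3 (males) or 0 (females, without libraries that stand apart). For sex it was 2 at 2 months with DESeq2, RLE or without Q80 male M5 and 0 without Q175 and Q20, and 1 at 10 months with log2(FPKM + 1) or without Adipoq libraries. For age it was 0 in WT alone in each comparison and 1 in knock-in lines for 10 against 2 months.

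With 1 library left out, the ranges were 1.19 to 2.22 for Fgf21, 0.53 to 0.72 for Inhbe, 0.46 to 0.80 for Gdf15, 0.22 to 0.58 for Angptl4 and 0.18 to 0.56 for Igfbp1 in Q175 at 2 months. At 6 months Fgf21 ran from 1.14 to 1.53 in Q92 and 1.73 to 2.15 in Q140. At 10 months Angptl4 ran from 1.11 to 1.28 in Q80, 0.63 to 0.83 in Q92, 0.74 to 0.98 in Q111 and 0.63 to 0.79 in Q175, Igfbp1 from 2.30 to 3.99 in Q80, 2.65 to 3.65 in Q92 and 1.10 to 3.09 in Q175, and Inhbe from -1.25 to -0.92 in Q92. Members called ran from 0 to 1 in Q111, Q80 and (6 months) Q92, 1 to 3 in Q92, 0 to 2 in Q175 and, at 6 months, 1 to 2 in Q140 and 0 to 0 in Q175.

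Over 48 same-numbered pairs of libraries, correlations ran from -0.342 to 0.372, with 17 over 0.1. Differently numbered pairs were not compared, so these values cannot tell whether replicate numbers pair the libraries. The fit with replicate number as a block changed no call of a member, with Fgf21 at 1.93 in Q140 at 6 months, Angptl4 at 1.22 in Q80 and Igfbp1 at 2.95 in Q92 at 10 months.

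Counts over all genes moved by more than 1.5 times in some fits: Q175 against Q20 at 10 months 197 (0 to 402), Q92 at 10 months 627 (2 to 809), Q111 at 10 months 174 (0 to 183), Q80 at 10 months 2 (0 to 63), Q140 at 6 months 936 (2 to 1556), Q92 at 6 months 2814 (0 to 3187), Q175 at 6 months 1699 (13 to 2031), slope at 6 months 972 (21 to 1070) and 10 months 93 (1 to 723), Q20 against WT at 6 months 5031 (1858 to 5191), and age 7728 (203 to 8323), 3829 (211 to 4325) and 8224 (9 to 9266) for 6 against 2, 10 against 2 and 10 against 6 months. Depth limits Fgf21 most, with a median of 14 counts.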
